A study of Rattus norvegicus with 8 samples.

Results

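The DNA repair genes of the rat distal colon were followed here by repair branch, in animals fed quercetin, a plant flavonol, and in animals fed a control diet. The set holds 39 genes: 13 of base excision repair, 3 of mismatch repair, 10 of nucleotide excision repair, 12 of double-strand break repair and Mgmt, which reverses alkyl damage directly. They were listed by name and matched to probe sets that carry a single gene symbol in the platform annotation. Of the 39, 38 were matched, among 14217 named genes on the array, and no expression value of Atm was analysed here. For genes with more than 1 probe set, values are those of the probe set with the highest mean signal.

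The quercetin group was 4 samples from rats given 10 g of quercetin per kg of diet for 11 weeks, and the control group was 4 samples from rats given the RM3 [E] FG SQC rat breeder diet for the same time. Total RNA came from mucosa scraped off the distal colon, and each sample was hybridised to its own Affymetrix expression array. The sources used here give no strain, sex or age. They also do not say outright that every sample came from its own rat, and the spread behind each p-value is that between samples, which may be technical. A scraping holds several cell types, and fewer cells of a type cannot be told apart from less RNA per cell.

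DNA repair is divided by the kind of damage. In base excision repair a glycosylase removes a small damaged base, an endonuclease opens the strand, and a polymerase and ligase fill and seal the gap, with poly(ADP-ribose) polymerases sensing the open strand. Mismatch repair corrects errors of DNA synthesis, nucleotide excision repair cuts out a stretch of strand around bulky lesions, and double-strand breaks are mended by homologous recombination or by end joining. The colon epithelium renews itself from dividing cells at the crypt base, and many repair genes are known to be transcribed more in dividing than in resting cells.

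No repair gene passed the threshold of 0.05 after Benjamini-Hochberg adjustment in limma's moderated test across all probe sets (0 of 36 tested members, where 0.00974% of the 10266 genes and 0.0107% of the 18625 probe sets tested passed). At an unadjusted p under 0.05 there were 3 of 36 members, or 8.33%, all higher in quercetin, against 9.43% of the genes and 10.8% of the probe sets tested, so the share of members was close to that of all genes. Higher in quercetin at that p were 6.09% of the genes tested. The 3 members were Parp1, Mutyh and Apex1, all of base excision repair. The count was 1 without quercetin array 2, without quercetin array 3 or without control array 4, where 6%, 9.7% and 8.12% of the genes tested had such a p, and 6 without control array 2, where 10.6% did. Parp1 was in it every time.

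The direction was more uneven than the size. Of the 38 measured members 31, or 81.6%, had a log2 fold change above 0, against 54.1% of all genes and 56% of the genes tested. The median log2 fold change of the members was 0.19, against 0.027 for all genes. Without control array 1 the members' median was 0.12 and that of all genes 0.018. The quercetin and control arrays did not overlap in 1 member, Parp1, or 2.63%, against 5.09% of all genes and 5.83% of the genes tested, and 3.06% of all genes were without overlap and higher in quercetin. All fold changes are quercetin over control on the log2(signal + 16) scale, which understates the difference of dim probe sets.

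**Figure D1:**
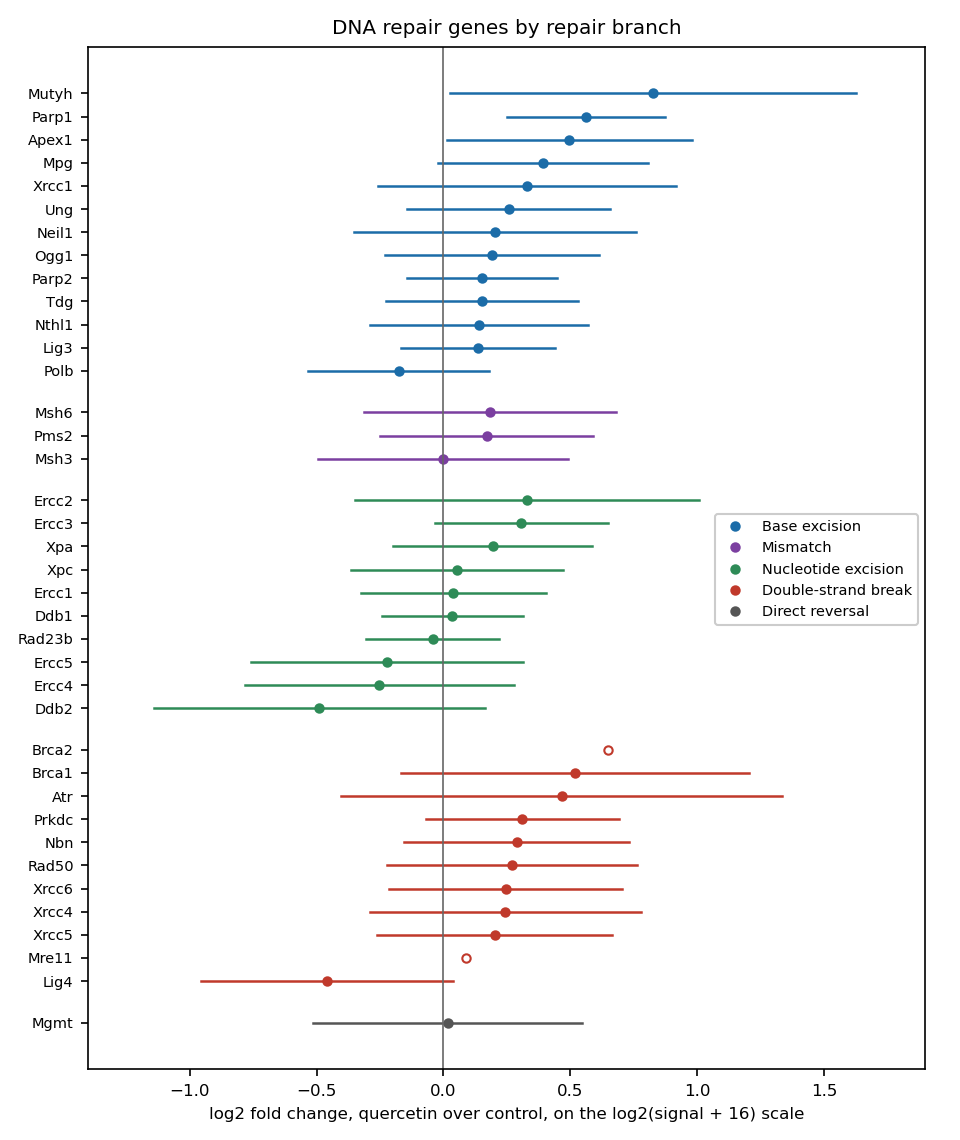
Each point is the log2 fold change of a repair gene, quercetin over control, on the log2(signal + 16) scale, and each bar its 95% interval from limma, with colours for the repair branches and open points for the 2 genes below the filter on dim probe sets. Of 38 points 31 lie right of 0, and of the 36 intervals those of Parp1, Mutyh and Apex1 lie wholly above 0.

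Base excision repair held the members with the smallest p. Of its 13 genes 12 had a fold change above 0, with a branch median of 0.20. Parp1, whose protein binds DNA strand breaks and builds poly(ADP-ribose) chains there, had signals of 506, 437, 403 and 434 on the quercetin arrays, against 292, 258, 334 and 303 on the control arrays. All 4 quercetin arrays lay above all 4 control arrays. The means were 445 ± 43.7 in quercetin and 297 ± 31.1 in control (SD, n = 4 each), a 1.48-fold difference with a log2 fold change of 0.56 (SE 0.144, 95% interval 0.25 to 0.87). Its unadjusted p was 0.00189 and its adjusted p in limma 0.261, so it did not pass over all probe sets. Over the 20 alternatives its log2 fold change ran from 0.46 to 0.62 and its adjusted p from 0.148 to 0.594.

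Parp2, the other break-activated polymerase of the pair, had signals of 400.3, 389, 339 and 386 on the quercetin arrays, against 344, 325, 373 and 314 on the control arrays. The groups overlapped, and the log2 fold change was 0.15 (95% interval -0.14 to 0.45). Whether Parp1 and Parp2 differed from each other was not tested.

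The glycosylases find and remove the damaged base. Mutyh, which takes out adenine mispaired with oxidised guanine, had signals of 21.6, 75.7, 49.1 and 67.7 on the quercetin arrays, against 35.8, 29.8, 6.79 and 19.1 on the control arrays. Quercetin array 1 lay among the controls and the other 3 above them. The log2 fold change was 0.83 (SE 0.370, adjusted p in limma 0.446), and the unadjusted p of 0.0438 became 0.0717 to 0.130 when quercetin array 2, 3 or 4 or control array 3 or 4 was left out. Its mean signal, 38.2 over all arrays, was close to the lower limit for testing, a signal of about 29.4, and its log2 fold change was 1.27 with a pseudocount of 1 and 0.42 with a pseudocount of 64.

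Ogg1, which removes the oxidised guanine itself, had signals of 127, 92.6, 80.3 and 108 on the quercetin arrays, against 86.1, 89.6, 82.5 and 86.2 on the control arrays. The control arrays were close together, and quercetin array 3 lay below all of them (log2 fold change 0.19, 95% interval -0.23 to 0.61). Mpg, the glycosylase for alkylated purines, had signals of 134, 191, 140.0 and 166 on the quercetin arrays, against 137, 89.1, 122 and 117 on the control arrays. Only quercetin array 1 lay below the highest control array (log2 fold change 0.39, 95% interval -0.020 to 0.80, adjusted p in limma 0.488).

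For the other glycosylases the log2 fold change was 0.26 for Ung, which removes uracil, 0.15 for Tdg, which removes thymine mispaired with guanine, 0.20 for Neil1 and 0.14 for Nthl1, both of which act on oxidised bases. The intervals of these genes spanned 0. All 7 glycosylases were thus above 0, against 54.1% of all genes. At an unadjusted p under 0.05 was 1 of them, Mutyh, against 9.43% of the genes tested. Without control array 1 the log2 fold change was 0.14 for Ung, 0.057 for Tdg, 0.0032 for Neil1 and 0.092 for Nthl1. It was then 0.99 for Mutyh, 0.47 for Mpg and 0.19 for Ogg1. Ung varied little among the quercetin arrays, at 209 to 231, and widely among the control arrays, at 139.5 to 247.

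Apex1 cuts the strand at the site the glycosylase has emptied. Its signals were 266, 217, 198 and 194 on the quercetin arrays, against 109, 184, 217 and 112 on the control arrays. Control arrays 1 and 4 were low, and control array 3 lay among the quercetin arrays. The log2 fold change was 0.50 (SE 0.223, adjusted p in limma 0.449), and without control array 1 it was 0.36. The unadjusted p of 0.0446 became 0.0508 to 0.138 when any quercetin array or control array 1 or 4 was left out. A second, much dimmer Apex1 probe set, at signals of 2.10 to 34.9 in quercetin and 2.90 to 7.24 in control, was not tested.

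For the genes of the later steps of the branch the intervals spanned 0. Xrcc1, the scaffold of single-strand break repair, had a log2 fold change of 0.33 (95% interval -0.26 to 0.92), which turned to -0.12 without control arrays 1 and 2. Lig3, its ligase partner, had 0.14, and -0.023 on a dimmer probe set. Polb, the gap-filling polymerase, was the member of the branch below 0, at -0.18 (95% interval -0.53 to 0.18) and -0.26 on its other probe set. Polb had signals of 183, 196, 176 and 215 on the quercetin arrays, against 270.4, 200.2, 189 and 225 on the control arrays.

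The RefSeq promoters (build GRCr8) of the 3 members with an unadjusted p under 0.05 are shown because these genes lead the branch. Each runs from 250 bases before the annotated gene start to 50 after it, on the strand of the gene, and capitals mark a GC box (GGGCGG on either strand) or a CCAAT box (CCAAT on either strand). The Parp1 window is chr13:94839234-94839533, that of Mutyh chr5:135510504-135510803 and that of Apex1 chr15:26617976-26618275, all on the plus strand.
Parp1: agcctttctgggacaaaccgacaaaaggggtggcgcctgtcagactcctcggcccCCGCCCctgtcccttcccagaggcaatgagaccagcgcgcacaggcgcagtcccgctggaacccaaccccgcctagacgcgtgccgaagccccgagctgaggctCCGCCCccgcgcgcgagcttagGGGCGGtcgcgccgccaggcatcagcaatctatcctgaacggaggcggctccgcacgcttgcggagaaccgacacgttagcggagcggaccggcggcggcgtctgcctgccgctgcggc
Mutyh: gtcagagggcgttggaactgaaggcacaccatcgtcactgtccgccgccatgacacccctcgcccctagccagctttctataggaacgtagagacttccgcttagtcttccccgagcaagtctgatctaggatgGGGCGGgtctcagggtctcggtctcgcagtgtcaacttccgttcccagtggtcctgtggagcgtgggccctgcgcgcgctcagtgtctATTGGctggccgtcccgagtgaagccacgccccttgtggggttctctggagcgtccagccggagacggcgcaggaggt
Apex1: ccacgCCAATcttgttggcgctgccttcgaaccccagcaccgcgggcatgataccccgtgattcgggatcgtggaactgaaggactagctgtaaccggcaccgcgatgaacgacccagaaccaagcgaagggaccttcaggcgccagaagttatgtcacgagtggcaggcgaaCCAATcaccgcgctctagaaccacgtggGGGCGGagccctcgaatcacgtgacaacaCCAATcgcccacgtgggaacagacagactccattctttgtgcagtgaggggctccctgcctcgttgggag

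Parp1 has 3 GC boxes and no CCAAT box in this window, Mutyh has 1 of each, and Apex1 has 1 GC box and 3 CCAAT boxes. Parp1 is 70.3% G and C, with 37 CpG pairs. Among the 34 members with a promoter in the table, 24 or 70.6% hold a GC box, against 34.9% of all 27457 promoters, which include those of non-coding and uncharacterised genes. A CCAAT box was found in 44.1% of the members' promoters and 37.7% of all. The E2F sequences TTTCCCGC and TTTGGCGC, searched on both strands, were found in 2 of the 34, Msh6 and Atm, or 5.88%, against 1.53% of all promoters. A match of letters is a description and not a binding site. Xpa, Prkdc, Polb, Ddb2 and Nbn had no entry.

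**Figure D2:**
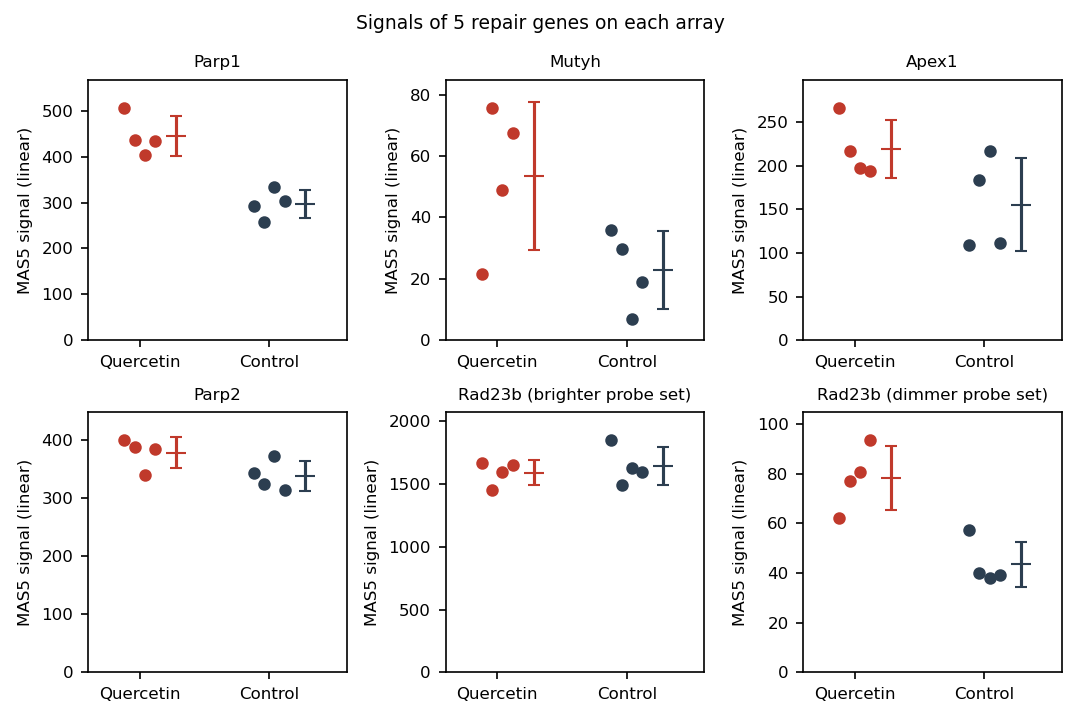
Linear MAS5 signals of Parp1, Mutyh, Apex1, Parp2 and both probe sets of Rad23b are plotted for each array, quercetin at left and control at right, with a dash and bar for the mean and SD of the 4 arrays. Parp1 and the dimmer Rad23b probe set are the panels in which the groups do not overlap.

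Mismatch repair had 3 measured members, with 2 above 0 and a median of 0.17. Msh6, which recognises mispaired bases as part of a dimer, had signals of 309, 273, 268 and 166 on the quercetin arrays, against 160.5, 300.6, 254 and 179 on the control arrays. High and low arrays occurred in both groups (log2 fold change 0.18, 95% interval -0.31 to 0.68). Pms2, an endonuclease subunit, had signals of 176, 175, 117 and 133 on the quercetin arrays, against 158, 140.1, 114 and 113 on the control arrays, and also overlapped (0.17). Msh3, which recognises larger loops, had -0.0011 (95% interval -0.49 to 0.49), with control array 2 the highest of all arrays at 252 against 114 to 141 on the other controls. Without that array Msh3 had 0.23, and its sign turned in 9 of the 20 alternatives.

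Nucleotide excision repair was split in direction, with 6 of 10 genes above 0 and a median of 0.037. The median log2 fold change of nucleotide excision genes turned negative without control array 1 (-0.016) and without control array 2 (-0.0089). No member had an unadjusted p under 0.05. Among the damage sensors, Xpc had a log2 fold change of 0.053, and Ddb1, the adaptor of the ubiquitin ligase that marks ultraviolet damage, had 0.036 (95% interval -0.24 to 0.31). A second bright Ddb1 probe set had 0.32. Ddb2, the subunit of that ligase that touches the lesion and a known p53 target in human cells, had signals of 81.5, 61.8, 31.8 and 25.4 on the quercetin arrays, against 65.4, 56.5, 96.6 and 71.4 on the control arrays. Quercetin arrays 3 and 4 lay below all controls and quercetin arrays 1 and 2 among them (log2 fold change -0.49, 95% interval -1.14 to 0.17, unadjusted limma p by the moderated test across all probe sets 0.130). A dimmer Ddb2 probe set, below the filter, had 0.12.

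Rad23b, which stabilises Xpc, gave different values by probe set. The brightest had signals of 1669.9, 1449.4, 1592 and 1651 on the quercetin arrays, against 1850, 1489.5, 1629 and 1598 on the control arrays, with a log2 fold change of -0.043 (95% interval -0.30 to 0.22). The dimmer one had signals of 62.0, 77.1, 80.7 and 93.5 on the quercetin arrays, against 57.2, 39.9, 38.0 and 39.1 on the control arrays. It did not overlap and had a log2 fold change of 0.66 (SE 0.230, unadjusted p 0.0128, adjusted p in limma 0.344). By the rule the brightest stands for the gene, and the difference between the probe sets was not tested.

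The helicases of the branch had log2 fold changes above 0, with intervals that spanned 0. Ercc3, a helicase of the general factor TFIIH that opens the strand, had signals of 535, 440.3, 419 and 373 on the quercetin arrays, against 295, 343, 411 and 364 on the control arrays (log2 fold change 0.31, 95% interval -0.035 to 0.65). Quercetin arrays 1, 2 and 3 lay above all controls, and quercetin array 4 below control array 3. Ercc2, the other TFIIH helicase, had signals of 28.9, 78.1, 88.6 and 63.4 on the quercetin arrays, against 38.0, 74.9, 35.1 and 40.2 on the control arrays, with a log2 fold change of 0.33 and an interval from -0.35 to 1.01. Xpa, which verifies the lesion, had 0.19.

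Of the nucleases that cut on either side of a lesion, Ercc4 had a log2 fold change of -0.25 and Ercc5 of -0.22, while Ercc1, the partner of Ercc4, had 0.039. Ercc4 had signals of 85.3, 184, 176 and 211 on the quercetin arrays, against 172, 201.3, 157 and 235 on the control arrays, so quercetin array 1 was the lowest of all. Without quercetin array 1 its value was 0.0030. The sign of Ercc1 turned in 4 of the 20 alternatives.

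Double-strand break repair had 10 of 11 measured genes above 0 and a median of 0.27, but no member with an unadjusted p under 0.05. Whether the branches differed from each other was not tested. The branch held dim probe sets: Brca2, a gene of homologous recombination, and Mre11, the nuclease of the MRN complex, lay below the filter and were not tested. Brca2 had signals of 61.2, 34.1, 2.79 and 49.3 on the quercetin arrays, against 6.70, 26.4, 16.2 and 9.49 on the control arrays. Mre11 had 2.55, 3.94, 6.61 and 4.28 on the quercetin arrays, against 4.54, 3.43, 2.29 and 2.15 on the control arrays. For Brca2 quercetin array 3 was the lowest of all arrays, and both genes overlapped between the diets. With no filter, the log2 fold change of Brca2 was 0.65 (adjusted p in limma 0.725) and that of Mre11 0.089 (adjusted p in limma 0.924).

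Of the other genes of recombination and signalling, Brca1, a recombination mediator, had signals of 36.9, 60.3, 37.7 and 41.5 on the quercetin arrays, against 41.3, 12.9, 17.7 and 37.1 on the control arrays. Control arrays 2 and 3 were low and the others overlapped (log2 fold change 0.52, adjusted p in limma 0.596). Nbn, a subunit of the MRN complex that senses broken ends, had signals of 465, 290.1, 343 and 317 on the quercetin arrays, against 223, 240.2, 407 and 289 on the control arrays (log2 fold change 0.29, adjusted p in limma 0.650). Rad50, the third MRN subunit, had 0.27 and 0.30 on its brightest and next probe sets and -0.59 on a probe set below the filter. Atr, the kinase activated by single-stranded DNA, had signals of 36.9, 54.0, 46.2 and 29.6 on the quercetin arrays, against 4.21, 60.02, 42.2 and 16.3 on the control arrays. Its log2 fold change was 0.47, or 0.12 without control array 1. The mean signals of Brca1 (35.7) and Atr (36.2) over all arrays were close to the lower limit for testing, about 29.4.

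End joining had 4 of 5 genes above 0. Xrcc6 and Xrcc5, the Ku70 and Ku80 proteins that cap broken ends, had log2 fold changes of 0.25 and 0.20. Prkdc, the kinase they recruit, had signals of 219.8, 203, 198 and 238 on the quercetin arrays, against 140.0, 208, 197 and 144 on the control arrays, where arrays 1 and 4 were low (log2 fold change 0.31, 95% interval -0.070 to 0.69). Xrcc4, the partner of the ligase, had 0.24, and Lig4, the ligase that seals the ends, was on the other side of 0. On dimmer probe sets below the filter, Xrcc5 had -0.14 and Xrcc4 had 0.60. Lig4 had signals of 125, 78.0, 144 and 132 on the quercetin arrays, against 209.96, 126, 138 and 212 on the control arrays, so control arrays 1 and 4 were the highest. Its log2 fold change was -0.46 (95% interval -0.96 to 0.039, adjusted p in limma 0.506), and -0.067 on its second probe set.

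Mgmt, which takes alkyl groups off guanine onto itself, was the member of direct reversal. It had signals of 96.5, 58.7, 119 and 129.8 on the quercetin arrays, against 111, 103, 107 and 69.3 on the control arrays. Each group had 1 low array, and the log2 fold change was 0.017 (95% interval -0.51 to 0.55).

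**Figure D3:**
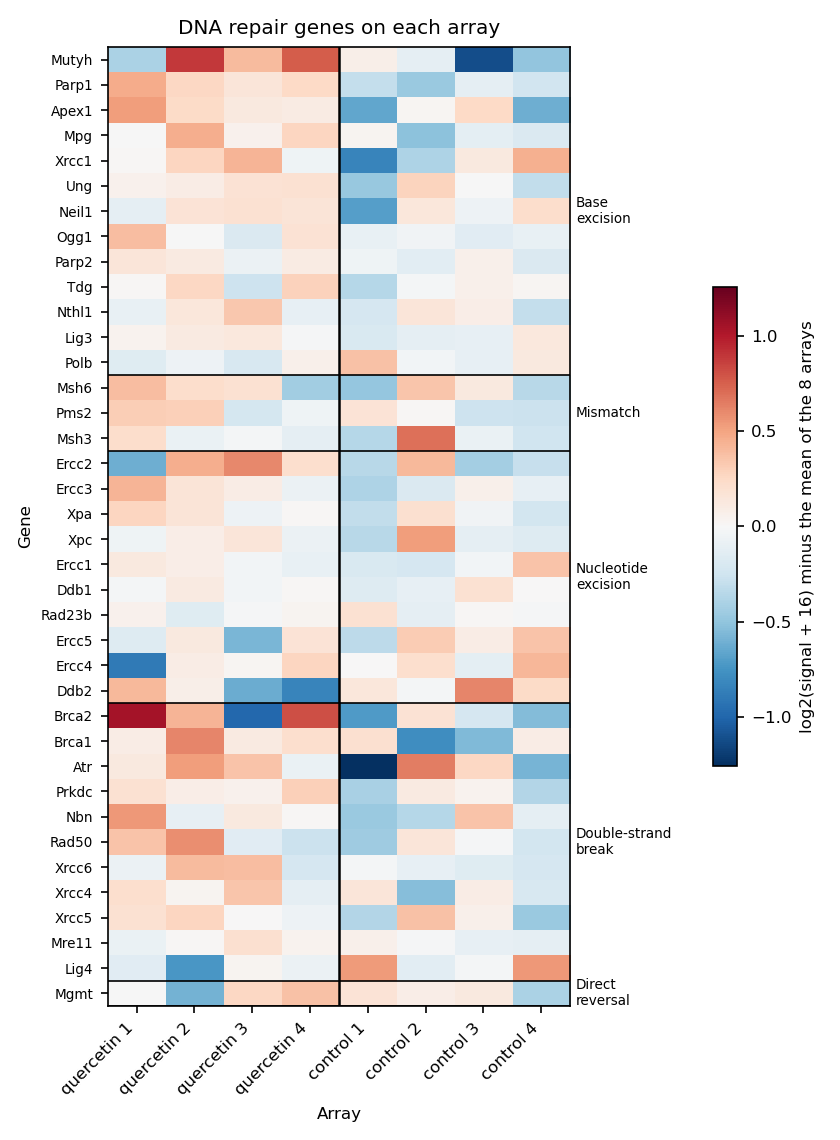
Rows are the 38 measured repair genes by branch and columns the 8 arrays, quercetin left of control; colour is log2(signal + 16) minus the mean of the 8 arrays, red above and blue below. Control array 1 is the lowest array for 16 genes, among them Atr, Xrcc1 and Neil1.

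The members did not vary evenly over the arrays. Control array 1 was the lowest of the 8 arrays for 16 of the 38 members, or 42.1%, against 20.3% of all genes. Quercetin array 1 was the highest for 10 members, and the share of all genes for which it was highest was not computed. The mean level of the members, relative to the mean of the 8 arrays, was 0.10, 0.16, 0.040 and 0.057 on the quercetin arrays, against -0.22, 0.012, -0.035 and -0.12 on the control arrays. By branch, the base excision level was 0.069 to 0.23 on the quercetin arrays and -0.26 to -0.093 on the control arrays, without overlap. The double-strand break level was 0.045 to 0.22 in quercetin and -0.25 to -0.022 in control, also without overlap. That level includes the dim, untested Brca2 and Mre11. Brca2 alone was at 1.05, 0.43, -0.99 and 0.81 on the quercetin arrays, against -0.72, 0.18, -0.21 and -0.55 on the control arrays. Without Brca2 and Mre11 the level on quercetin array 4 lay below that on control array 3, so the diets overlapped. How often other gene lists of such sizes are without overlap was not tested. The levels of mismatch repair (-0.20 to 0.31 in quercetin, -0.29 to 0.35 in control) and nucleotide excision repair (-0.047 to 0.12 in quercetin, -0.17 to 0.10 in control) overlapped. Without control array 1 the medians were 0.14 for base excision, 0.050 for mismatch and 0.18 for double-strand break genes.

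The levels of cell division genes followed a similar order of arrays at the low end, with control array 1 lowest. The mean level of 20 mitosis genes was 0.67, 0.44, 0.13 and 0.15 on the quercetin arrays, against -1.07, -0.080, 0.11 and -0.34 on the control arrays, and control array 1 was lowest for 18 of the 20. Their median log2 fold change was 0.69, with all 20 above 0, against 54.1% of all genes. At an unadjusted p under 0.05 were 10 of the 20, against 9.43% of the genes tested. The 6 with the smallest p, with log2 fold changes in brackets, were Foxm1 (1.26), a mitotic transcription factor, Cdk1 (0.92), the mitotic kinase, Aurka (0.80), Ccnb1 (0.67), Prc1 (0.75) and Ube2c (0.66). The summed signal of the 20 genes was 5656 to 8518 in quercetin and 2163 to 5834 in control. Of 25 DNA replication genes 23 were above 0, against 54.1% of all genes, with a median of 0.30. Their mean level was 0.45, 0.27, -0.046 and -0.062 on the quercetin arrays, against -0.91, 0.37, 0.070 and -0.14 on the control arrays. Control array 1 thus stood far below the other controls, which lay within the range of the quercetin arrays or just below it. None of the 25 had an unadjusted p under 0.05. Those with the smallest p were Prim1 (0.52), Rfc3 (0.46), Dut (0.53), Tk1 (0.55), Rfc4 (0.46) and Mcm7 (0.43), and control array 1 was lowest for 23 of the 25. The part of cell division in the values of the repair genes was not tested. Mitosis and replication genes passed limma's adjusted threshold in 0 cases each.

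**Figure D4:**
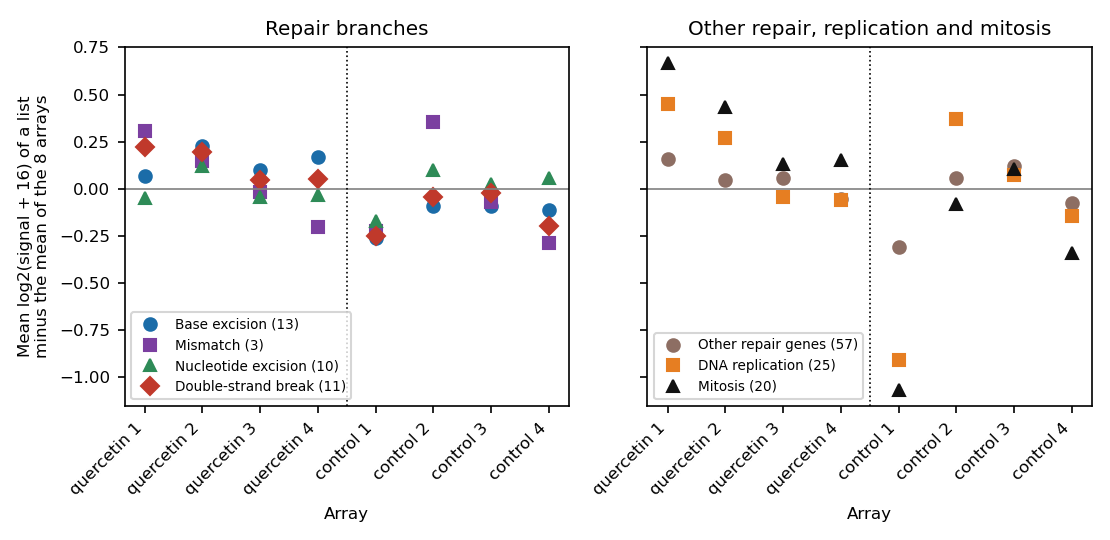
Each point is the mean log2(signal + 16) of a gene list on an array, minus the mean of the 8 arrays, with the repair branches at left and other repair, DNA replication and mitosis genes at right; the number of genes is in brackets. Control array 1 has the lowest mitosis level, -1.07, and the lowest base excision level, -0.26.

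Other genes of DNA repair came from a list of 69, of which 57 were measured. Of the 57, 34 or 59.6% were above 0, against 54.1% of all genes, with a median of 0.10. Whether they differed from the 38 members was not tested. After adjustment 0 of 52 tested genes passed limma's threshold, and at an unadjusted p under 0.05 there were 3 higher and 1 lower, or 7.69%, against 9.43% of all genes tested. Gtf2h4, a TFIIH subunit, had signals of 149, 158, 114 and 142 on the quercetin arrays, against 67.7, 90.6, 67.4 and 117 on the control arrays (log2 fold change 0.65, adjusted p in limma 0.333). Rnf8, a ubiquitin ligase that acts at double-strand breaks, had signals of 189, 143, 181 and 197 on the quercetin arrays, against 262, 204, 273 and 258 on the control arrays. The groups did not overlap, with quercetin the lower (-0.46, adjusted p in limma 0.357). Poll, a polymerase of end joining, had 0.68, and H2ax, the histone variant phosphorylated around breaks, 0.44. Fancc (0.61), of the pathway for interstrand crosslinks, and Fen1 (0.51), a flap nuclease, came next.

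As a check on the tissue, all 14 markers of colon epithelium were measured, with mean signals of 414 to 22313 over the 8 arrays and a median log2 fold change of 0.014. Their summed signal was 137884 to 151770 in quercetin and 144292 to 162829 in control, and the 7 goblet cell markers had a median of 0.049. B cell markers (5 of 8 measured, summed signal 82.4 to 228 in quercetin and 22.0 to 111 in control) were all below the filter. T cell markers (9 of 9) summed to 489 to 788 in quercetin and 390 to 767 in control, and macrophage and dendritic cell markers (9 of 10) to 2039 to 2555 in quercetin and 1369 to 3532 in control. Smooth muscle markers (12 of 12) summed to 3360 to 3725 in quercetin and 3883 to 5774 in control, without overlap, though their median log2 fold change was 0.11. Most of that sum came from Tpm1 and Mylk, with mean signals of 1869.7 and 1546 over the 8 arrays, and 7 of the 12 markers were above the filter, among them Smtn (193), Myh11 (146), Acta2 (122) and Des (44.97), while Tagln (5.21), Cnn1 (12.6) and Myl9 (17.9) were below it. Cd14, at 2251, made up most of the macrophage sum, and 4 of the 9 markers were above the filter, the others being Aif1 (44.7), Csf1r (43.4) and Mrc1 (38.9), while Itgam (4.78) and Adgre1 (14.2) were below it. No marker was at 0. The 3' to 5' signal ratio of GAPDH, a measure of RNA wholeness, was 1.91 to 2.36 in quercetin and 1.58 to 3.79 in control, with control array 2 highest. That of beta-actin was 7.18, 8.90, 9.12 and 6.79 on the quercetin arrays, against 8.65, 21.4, 10.2 and 12.4 on the control arrays, so 3 of the 4 control arrays lay above all quercetin arrays. The part of these cell types and of RNA quality in the repair values was not tested beyond a fit with the GAPDH ratio, in which Parp1 had 0.54 and the members' median was 0.21.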

How the data were processed

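Arrays of 4 quercetin and 4 control samples were grouped by sample title. The deposited intensity of each probe set is a linear MAS5 signal, by the submitters' processing notes; the mean after trimming 2% at either end was 200.0 on every array. The sources used here give no other step. Dim MAS5 values scatter widely once logged. The arrays' own controls (57 of 31099 probe sets) were removed. Signals were taken as log2(signal + 16), and the 60% of probe sets with the highest 8-array mean (18625) were tested by limma's moderated test (limma 3.58.1, R 4.3.3, with trend = TRUE; two-sided p-values adjusted by Benjamini-Hochberg over all of them). The median standard error was 0.222, which the number of arrays limits.

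Symbols came from the platform annotation, where 20826 probe sets carry 1, 436 carry several and 9780 carry none; 0 changed when checked against RefSeq. The members and lists were chosen with earlier results of these data known. The naming rule allowed every member, gave all signals for members with an unadjusted p under 0.05 or without overlap and for the brightest and dimmest of each branch (others shown were chosen after their values were seen), and took up to 6 genes by smallest p from the lists of other repair, replication and mitosis genes. Counts of direction and overlap and all medians cover the 38 measured members without the filter. The limma fit was tested on simulated data with independent noise for each probe set and no shared array effect. How often it finds changes as small as those of the members is not reported here. Alternatives changed the pseudocount (1 or 64), the scaling (quantile or median), the filter (none, or the upper 40%), the model (array weights, a replicate block, no trend, the GAPDH ratio as covariate), the probe sets per gene (averaged) and the arrays (each left out, or control arrays 1 and 2 together).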

Additional observations from a re-analysis of the deposited data

Results flagged for a closer look

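For 38 members, 4 branches and the whole set, the 4 arrays of either diet were searched for a value standing apart (Dixon's ratio, given in brackets: its distance from the next value divided by the spread of the 4). Of 86 searches 5 found one, and about 4.3, or 1 in 20, would be found by chance. Neil1 was low on quercetin array 1 (0.917), where the signal was 52.9 and those of quercetin arrays 2 to 4 were 67.4 to 68.9. Ercc2 was high on control array 2 (0.834), at 74.9 against 35.1 to 40.2 on the other controls. Mgmt was low on control array 4 (0.838), at 69.3 against 103 to 111. The base excision level was low on control array 1 (0.877), at -0.26 against -0.11 to -0.093 on the other controls, and the nucleotide excision level was high on quercetin array 2 (0.933): 0.12 there, and -0.047 to -0.036 on quercetin arrays 1, 3 and 4.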

How the results depend on the processing

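No member passed the adjusted threshold under any of the 20 alternatives, and 29 of 38 kept their sign in all of them. The medians of the members and of base excision, mismatch and double-strand break genes stayed above 0; that of nucleotide excision genes turned negative in 4 alternatives, to -0.021 with array weights and -0.053 without control arrays 1 and 2. Over all probe sets 2 passed, both with quercetin lower (2003 had an unadjusted p under 0.05); the count was 1 with a pseudocount of 1, quantile normalisation, median centring, no filter, the replicate number as a block or no trend, 3 with a pseudocount of 64, 0 with averaged probe sets (1594 at an unadjusted p under 0.05), 0 without control arrays 1 and 2 (1394 so), and 1 to 2 with 1 array left out. Members at an unadjusted p under 0.05 numbered 7 with array weights (10.8% of all genes tested had such a p), 2 with the replicate block (9.14%), and 1 to 6 with 1 array left out (6% to 10.6%). Members without overlap numbered 3 with averaged probe sets (7.89%, against 4.82% of all genes), 8 without control arrays 1 and 2 (21.1%, against 15.7% of all genes) and 1 to 4 with 1 array left out (against 7.32% to 9.31%), where fewer arrays make overlap rarer by construction. Signs turned for Xrcc1 (-0.12), Ercc1 (-0.14), Ddb1 (-0.083) and Msh3 (0.17) without control arrays 1 and 2; for Ercc1 (-0.054), Ddb1 (-0.0034) and Msh3 (0.080) with array weights; for Msh3 (0.0040) with a pseudocount of 1, (0.078) with the GAPDH ratio and (0.049) with median centring, as for Rad23b (0.0069); and for Rad23b (0.31) and Rad50 (-0.0070) with averaged probe sets. With 1 array left out, Msh3 ran from -0.12 to 0.23, Xpc from -0.056 to 0.24, Ercc1 from -0.024 to 0.16, Ercc4 from -0.39 to 0.0030, Ddb1 from -0.014 to 0.11, Rad23b from -0.088 to 0.015 and Mgmt from -0.12 to 0.22. The cause was not tested where none is given. With the block, Parp1 and Lig4 had an unadjusted p under 0.05; Mutyh and Apex1 did not. Same-numbered samples correlated at -0.0234, 0.163, -0.151 and 0.138 in their deviations from the group means. For quercetin sample 2 the best-correlated control was the same-numbered one, and for samples 1, 3 and 4 it was not. Whether the shared numbers pair the samples was not tested. Dim probe sets such as those of Mutyh, Brca2 and Mre11 limit what can be detected.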
